A study of Rattus norvegicus with 12 samples.

Results

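A set of 10 genes for lipoprotein uptake, cholesterol export and lipid handling was followed through 12 RNA-seq libraries of rat PAC1 cells, a smooth muscle cell line from pulmonary artery. The members, 10 of the 33294 genes in the count table, were Olr1, Cd36, Scarb1, Scarb2, Abca1, Abcg1, Lrp1, Apoe, Lpl and Vldlr. They were taken by name as scavenger receptors and foam-cell lipid transport genes, and Olr1 was chosen by its measured level, which was higher after MBNL knockdown than in D1, so that every member value in that comparison is given as a description and without a p-value.

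The 12 libraries formed 4 groups of 3. D1 was the differentiated culture (PAC1-D, passaged 1 time a week at 1:10) with control siRNA, and P was the proliferative culture (PAC1-P, passaged 2 times a week at 1:20) with control siRNA. RBPMS KD1 was PAC1-D with siRNA against Rbpms, a splicing regulator of differentiated smooth muscle, and MBNL KD was PAC1-D with siRNAs against both Mbnl1 and Mbnl2, RNA-binding splicing regulators of the muscleblind family. All cultures grew in DMEM with foetal bovine serum. The control groups also carried siRNA and transfection reagent. Per the labels, 90 pmol siRNA was given 2 times, 24 h apart, to 200000 cells per well, and cells were taken 48 h after the second dose. The study's methods describe a longer schedule and other cell numbers for the transfection, so the exact exposure is uncertain. All groups came from 1 cell line, P and D1 differed in passaging regime, and each target was addressed with 1 siRNA, so that the effect of a target and of its siRNA cannot be told apart. The titles of the MBNL KD libraries name MBNL1 alone, whereas their treatment labels name both genes.

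Smooth muscle cells of the artery wall can take up modified lipoproteins and store their cholesterol as ester droplets, which gives foam cells. Scavenger receptors bind oxidised or otherwise modified LDL and are not shut off by rising cell cholesterol. Cholesterol leaves the cell through ABC transporters, which load it onto apolipoproteins and HDL, and members of the LDL receptor family bind lipoproteins carrying apolipoprotein E.

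The siRNAs that define the groups are printed as sense strands, 5′ to 3′ and wholly in lower case, because each library of a group received the same sequence.
Control siRNA (D1 and P): aagguccggcucccccaaaug
RBPMS siRNA: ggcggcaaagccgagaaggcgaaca
MBNL1 siRNA: cacggaauguaaauuugcauu
MBNL2 siRNA: gaagaguaauugccugcuuuu
They hold 61.9%, 64.0%, 33.3% and 38.1% G and C, in that order.

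The 250 bases upstream of the start are printed for Olr1, the member that differed most between MBNL KD and D1, and for Abca1 and Lrp1, whose levels were ordered alike across the 4 groups. The sequences are those of RefSeq on build GRCr8, 5′ to 3′ on the minus strand, which is not the build used for counting (mRatBN7.2). Olr1 lies at chr4:164634548-164634797, Abca1 at chr5:72596474-72596723 and Lrp1 at chr7:65346197-65346446. Capitals mark matches on either strand to motifs that were searched by letters.
Olr1: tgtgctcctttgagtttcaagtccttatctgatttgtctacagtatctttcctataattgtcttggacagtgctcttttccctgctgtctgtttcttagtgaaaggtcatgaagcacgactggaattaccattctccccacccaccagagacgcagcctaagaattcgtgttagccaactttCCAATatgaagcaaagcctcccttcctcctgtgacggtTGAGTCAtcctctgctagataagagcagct
Abca1: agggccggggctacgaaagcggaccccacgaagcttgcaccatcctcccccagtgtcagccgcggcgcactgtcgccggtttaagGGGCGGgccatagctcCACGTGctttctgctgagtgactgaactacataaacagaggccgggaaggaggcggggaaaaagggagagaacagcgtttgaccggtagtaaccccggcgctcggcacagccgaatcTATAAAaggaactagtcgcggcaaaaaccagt
Lrp1: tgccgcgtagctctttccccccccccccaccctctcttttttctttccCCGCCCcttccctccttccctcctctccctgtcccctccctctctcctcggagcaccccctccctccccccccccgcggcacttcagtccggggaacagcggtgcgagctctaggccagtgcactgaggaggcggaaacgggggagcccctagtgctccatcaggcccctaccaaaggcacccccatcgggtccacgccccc
In the Olr1 window the capitals are a CCAAT box from -68 to -64 and an AP-1 element (TGANTCA) from -30 to -24, counted from the base before the start. In the Abca1 window they are a GC box (GGGCGG) from -165 to -160, a CACGTG E-box from -149 to -144 and a TATA box (TATAAA) from -32 to -27. The Lrp1 window holds a single GC box from -202 to -197, read on the opposite strand. Among 33469 rat upstream windows of that length, 34% held CCAAT, 6.34% the AP-1 element, 30.5% the GC box, 5.59% CACGTG and 12.9% TATAAA, searched on both strands. RefSeq windows were found for 7 of the 10 members, 9 windows in all, and not for Scarb1, Abcg1 or Lpl. Apoe supplied several of the 9 windows, some of them overlapping. A CArG box and the DR4 element, held by 1.5% and 0.00299% of all windows, were in none of the 9, and at such shares nothing is read from that. These are letter matches in a short window and no record of binding.

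Library totals ran from 80842635 to 90771289 counts, and 19659 to 20904 genes had a count. Even counts were 2.03 to 2.30 times as frequent as neighbouring odd counts, and since the counting of read mates is not given in the sources used here, the intervals on counts below cover counting error only and may be too narrow. Rbpms stood at 25.0% of its D1 mean in RBPMS KD1 and at 6.32% in P, Mbnl1 at 23.8% and Mbnl2 at 29.6% in MBNL KD. The summed scaled counts of 8 smooth muscle contractile markers were 870347 to 914855 in D1, 18715.5 to 19888 in P, 433760 to 449217 in RBPMS KD1 and 694962 to 705331 in MBNL KD. Acta2 and Tagln made up most of the D1 sum, with means of 446867 and 287969. The markers did not move as 1 in MBNL KD, where Myh11 stood at 145% and Cnn1 at 108% of the D1 mean and the other 6 below it. In bulk RNA, fewer cells of a kind and less RNA per cell cannot be told apart.

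Olr1, which encodes the lectin-like oxidised LDL receptor, had its highest level in MBNL KD. Its counts, scaled to the mean effective library size, were 141, 92.8 and 130 in D1, 102, 138 and 138 in P, 323, 378 and 327 in RBPMS KD1 and 2191, 2281 and 2186 in MBNL KD. D1 and P overlapped, all RBPMS KD1 libraries lay above both, and all MBNL KD libraries lay above every other library. The means were 121 ± 25.3 in D1, 126 ± 20.8 in P, 343 ± 31.1 in RBPMS KD1 and 2219 ± 53.2 in MBNL KD (SD, n = 3). MBNL KD was thus 18.3-fold above D1, a log2 difference of 4.19 with an SE of 0.08, which is the value Olr1 was chosen for. RBPMS KD1 was 2.82-fold above D1 (log2 difference 1.50, SE 0.14). The D1 libraries are those against which Olr1 was chosen, so no p is given for Olr1 in any comparison with D1. The contrast of P with D1 gave a log2 difference of 0.05 with a 95% interval from -0.31 to 0.40, and -0.42 when the libraries were quantile normalised. Against RBPMS KD1, P was lower by a log2 difference of -1.47 (SE 0.13, adjusted p = 2.6e-12 by edgeR), a test that used neither the D1 nor the MBNL KD libraries.

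**Figure D1:**
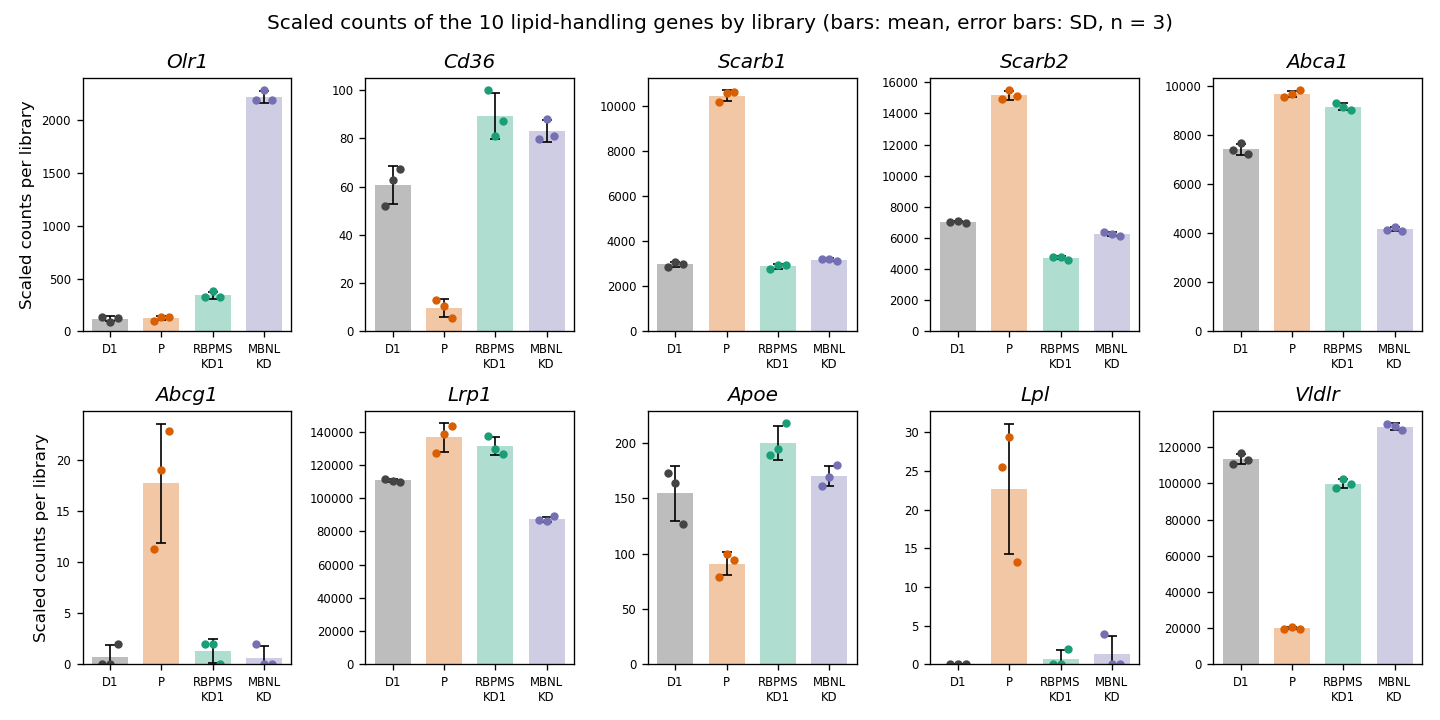
Scaled counts of each member in the 12 libraries, on linear axes that start at 0 and differ between panels, with the groups D1, P, RBPMS KD1 and MBNL KD along the horizontal axis. Points are libraries, bars are group means and error bars are SD (n = 3). Olr1 stood at 2186 to 2281 in MBNL KD and at 92.8 to 141 in D1, whereas Vldlr and Cd36 were lowest in P.

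Cd36, a class B receptor for oxidised LDL and long-chain fatty acids, was scarce in all groups and scarcest in P. Scaled counts were 52.0, 62.9 and 67.2 in D1, 13.2, 10.4 and 5.69 in P, 99.8, 80.9 and 87.2 in RBPMS KD1 and 79.6, 88.0 and 81.0 in MBNL KD. P lay below every other library, and the knockdown groups overlapped each other above D1. In P the raw counts were 14, 11 and 6, so that Cd36 passed the filter on low counts through the other group alone, and no p is given for P. The log2 difference of P from D1 was -2.62 (SE 0.35). The size of this difference depended on the scaling, at -3.54 after quantile normalisation and -1.28 by limma on the authors' normalised values, which have a floor of 35. In RBPMS KD1 the difference from D1 was 0.56 (SE 0.21, adjusted p = 0.025 by edgeR), under the 2-fold threshold, and the adjusted p was 0.105 without the first D1 library and 0.103 without the first RBPMS KD1 library. In MBNL KD it was 0.45 (SE 0.21).

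Scarb1, the class B receptor that exchanges cholesterol esters with HDL, was highest in P. Its scaled counts were 2836, 3080 and 3005 in D1, 10158, 10548 and 10607 in P, 2758, 2965 and 2945 in RBPMS KD1 and 3203, 3218 and 3118 in MBNL KD. It rose 3.50-fold in P against D1 (log2 fold change 1.81, SE 0.03, adjusted p = 2.8e-31 by edgeR). RBPMS KD1 overlapped D1, at a log2 fold change of -0.04 with a 95% interval from -0.12 to 0.04 (adjusted p = 0.428 by edgeR). MBNL KD lay just above D1, at a log2 difference of 0.10 (SE 0.04).

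Scarb2, a class B relative that resides in lysosomes and carries glucocerebrosidase there, was also highest in P, with 14908, 15478 and 15124 scaled counts against 7048, 7091 and 6995 in D1. RBPMS KD1 held 4759, 4788 and 4609 and MBNL KD 6406, 6226 and 6133. No groups overlapped, and the order was P, D1, MBNL KD and RBPMS KD1. Scarb2 rose 2.15-fold in P (log2 fold change 1.10, SE 0.03, adjusted p = 1.2e-27 by edgeR). In RBPMS KD1 it was lower than D1 by a log2 difference of -0.58 (SE 0.03, adjusted p = 1.2e-15 by edgeR), within 2-fold, and in MBNL KD by -0.17 (SE 0.03).

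Abca1, the ABC transporter that lifts cholesterol onto lipid-poor apolipoprotein A-I, was lowest in MBNL KD. Scaled counts were 7371, 7675 and 7231 in D1, 9550, 9656 and 9817 in P, 9302, 9144 and 9032 in RBPMS KD1 and 4115, 4261 and 4108 in MBNL KD. Each group was apart from the others, and MBNL KD stood at 56.0% of the D1 mean (log2 difference -0.83, SE 0.03). In P and RBPMS KD1 Abca1 was above D1 but within 2-fold, by 0.38 (SE 0.03, adjusted p = 7.5e-14 by edgeR) and 0.30 (SE 0.03, adjusted p = 4.5e-10). P and RBPMS KD1 were neighbours with a log2 fold change of 0.05 and an interval from -0.01 to 0.11 (adjusted p = 0.111 by edgeR). Over the alternatives run the log2 fold change was 0.04 to 0.08 and the adjusted p 0.0096 to 0.275, so whether they differ depended on the setting.

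Abcg1, the transporter that delivers cholesterol to mature HDL, was close to undetected outside P. Its raw counts were 0, 0 and 2 in D1, 12, 20 and 24 in P, 2, 2 and 0 in RBPMS KD1 and 2, 0 and 0 in MBNL KD. The ratio of P to D1, 56 counts against 2, was 25.9 with a 95% counting interval from 6.84 to 219. Abcg1 passed the filter on low counts through its P libraries alone, so no p is given. The D1 counts came from 1 library, and the fitted log2 fold change of 4.46 became 7.18 without it and 2.00 after quantile normalisation. Between the knockdown groups and D1 the counts were too few for a test, the ratio of RBPMS KD1 to D1 being 1.97 with an interval from 0.282 to 21.8.

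Lrp1, a large endocytic receptor for apolipoprotein E remnants and many protease complexes, was lowest in MBNL KD. It had 111448, 110551 and 109788 scaled counts in D1, 127106, 138674 and 143533 in P, 137040, 129783 and 126615 in RBPMS KD1 and 86652, 85938 and 89119 in MBNL KD. P and RBPMS KD1 overlapped above D1, and MBNL KD lay below it. The log2 fold changes against D1 were 0.30 in P (SE 0.03, adjusted p = 4.7e-11 by edgeR) and 0.25 in RBPMS KD1 (SE 0.03, adjusted p = 4.7e-09), both within 2-fold, and the MBNL KD difference was -0.34 (SE 0.02). The log2 fold change of P against D1 was 0.63 after quantile normalisation and 0.67 by limma on the authors' values. P and RBPMS KD1 differed by 0.03, interval -0.04 to 0.09 (adjusted p = 0.446 by edgeR), but by 0.39 after quantile normalisation (adjusted p = 5.5e-10).

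Vldlr, a receptor for triglyceride-rich lipoproteins and reelin, was lowest in P. It had 110754, 116585 and 112865 scaled counts in D1, 19782, 20726 and 19474 in P, 97510, 102405 and 99686 in RBPMS KD1 and 132911, 131689 and 129380 in MBNL KD. No groups overlapped, the order being MBNL KD, D1, RBPMS KD1 and P. Vldlr was 5.69-fold lower in P than in D1 (log2 fold change -2.51, SE 0.03, adjusted p = 1.5e-37 by edgeR). The RBPMS KD1 difference was -0.18 (SE 0.03, adjusted p = 5.8e-07 by edgeR) and the MBNL KD difference 0.21 (SE 0.02), both well within 2-fold.

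Apoe, which encodes the ligand that carries remnants to LDL family receptors, and Lpl, the lipase that hydrolyses triglyceride in lipoproteins, were both low. Apoe had 172, 164 and 126 scaled counts in D1, 79.2, 99.5 and 93.9 in P, 189, 194 and 217 in RBPMS KD1 and 161, 169 and 180 in MBNL KD. P lay below all other libraries and RBPMS KD1 above them, and D1 and MBNL KD overlapped. In P against D1 the log2 fold change was -0.77 (SE 0.17, adjusted p = 0.00020 by edgeR), short of the 2-fold threshold, which it passed after quantile normalisation (-1.23). In RBPMS KD1 it was 0.38 (SE 0.14, adjusted p = 0.024 by edgeR), with an adjusted p of 0.151 without the third D1 library and 0.105 without the third RBPMS KD1 library. In MBNL KD it was 0.14 (SE 0.15). P was lower than RBPMS KD1 by -1.17 (SE 0.16, adjusted p = 3.8e-08 by edgeR).

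Lpl had no count in D1. It had 27, 31 and 14 counts in P, 0, 0 and 2 in RBPMS KD1 and 4, 0 and 0 in MBNL KD. P was at least 7.40-fold higher than D1 against a floor of 3 counts per library. Lpl also passed the filter through P alone, and no p is given. Against the 2 counts of RBPMS KD1, the ratio was 33.8 with a counting interval from 9.03 to 285. Both counts came from 1 library, without which the fitted log2 fold change went from 4.82 to 7.55, whereas after quantile normalisation it was 2.49. The single libraries with counts in the knockdown groups are no measure of a difference from D1.

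Counted together, 6 of the 10 members passed both thresholds in P against D1, an adjusted p under 0.05 and a 2-fold change, beside 27.6% of all 16814 genes tested (16.4% higher and 11.2% lower). Scarb1, Scarb2, Abcg1 and Lpl were higher and Cd36 and Vldlr lower. Abcg1 and Lpl entered the test through their P counts alone and Cd36 through its D1 counts alone. With at least 10 counts required in every library, which leaves these 3 out, 3 of 7 members were called beside 20.1% of all genes under that filter. At the adjusted p alone 9 members passed, 6 higher and 3 lower, beside 77.9% of all genes (40.4% higher and 37.6% lower). Groups did not overlap for 9 of the 10 members, beside 79.1% of all genes, and the median log2 fold change was 0.34 beside 0.02 over all genes. Without Olr1, which was chosen against the D1 libraries, 6 of 9 members were called and the median was 0.38. Among all genes called, 59.4% were higher in P, and 45.8% after quantile normalisation.

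In RBPMS KD1 against D1, Olr1 was left out of the count, since it was chosen against the D1 libraries, and 0 of the other 7 members tested passed both thresholds by edgeR, beside 4.68% of all genes (3.06% higher and 1.62% lower). At the adjusted p alone 6 of the 7 passed, 4 higher and 2 lower, beside 59.1% of all genes (29.5% higher and 29.5% lower), and the median log2 fold change of the 7 was 0.25 beside 0.0043 over all genes. Of the genes called, 65.4% were higher, and 54.3% after quantile normalisation. In MBNL KD against D1, Olr1 was the 1 member beyond both thresholds of 8, beside 10.2% of all genes (6.10% higher and 4.14% lower), from which nothing is read since Olr1 was chosen there, and the median was 0.12 beside 0.0099. In P against RBPMS KD1, 8 of 10 were called (5 of 7 with at least 10 counts in every library, which leaves out Abcg1, Lpl and Cd36, beside 21.6% of all genes under that filter), 4 higher and 4 lower, beside 29.1% of all genes (16.1% higher and 13.0% lower), and 55.4% of all calls were higher, or 45.0% after quantile normalisation. Scarb1 was higher in P by 1.82 (SE 0.03) and Scarb2 by 1.66 (SE 0.03) on the log2 scale, and Abcg1 and Lpl were also higher, through counts of 56 against 4 and 72 against 2. Cd36 was lower by -3.20 (SE 0.32), or -3.94 after quantile normalisation and -1.57 by limma, and Vldlr by -2.35 (SE 0.03), beside Olr1 and Apoe. The 3 comparisons with D1 share its libraries, so their values are not independent of each other.

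**Figure D2:**
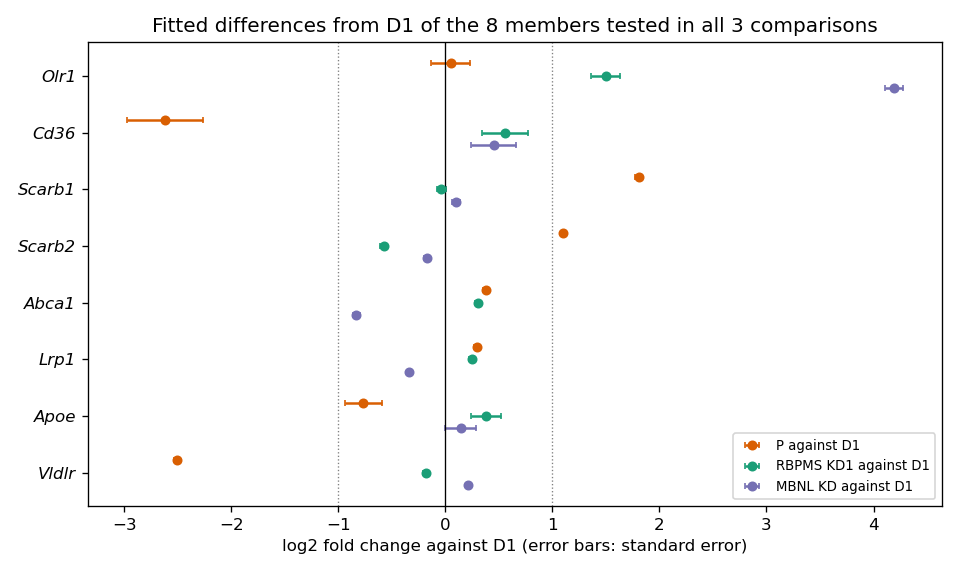
Log2 fold change (horizontal axis) against D1 in P, RBPMS KD1 and MBNL KD, for the 8 members tested in all 3 comparisons, with error bars of 1 SE and dotted lines at a 2-fold change. Olr1 was at 4.19 in MBNL KD, 1.50 in RBPMS KD1 and 0.05 in P, and the points of Scarb1, Scarb2, Cd36 and Vldlr outside the dotted lines are those of P.

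The wider pathway was described through 6 lists of other genes, whose calls are read beside the shares of all genes called in each comparison. Those shares were 16.4% higher and 11.2% lower in P, 3.06% and 1.62% in RBPMS KD1, and 6.10% and 4.14% in MBNL KD. Over the genes tested, the list medians of the log2 fold change ran from -0.30 to 0.46 in P (0.02 over all genes), from -0.08 to 0.43 in RBPMS KD1 (0.0043) and from -0.31 to 0.07 in MBNL KD (0.0099). Of 18 other scavenger receptors, 15 were tested in P against D1, 6 were called higher and 1 lower, or 3 higher and 1 lower among 14 by limma on the authors' normalised values. Of the 6, Stab2, Colec12 and Megf10 passed the filter through P alone and are named for that reason only. Scarf1, a receptor for modified LDL, rose from 101 to 2217 mean scaled counts (log2 fold change 4.45, SE 0.08), and Scara5, which binds ferritin, from 286 to 5374 (4.23, SE 0.06). Scara5 was also the 1 of 12 called in RBPMS KD1, at 1169 (2.03, SE 0.07), and Axl, a receptor kinase of dead-cell clearance, the 1 of 12 in MBNL KD, from 24020 to 11786 (-1.03, SE 0.03), or -0.94 after quantile normalisation, which is within 2-fold. Scarf1 read 113, 76.3 and 113 in D1 and 88.7, 130 and 117 in RBPMS KD1, so it overlapped there.

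In the list of LDL receptor relatives and uptake factors, 14 of 16 were tested in P, with 3 called higher and 2 lower. Mylip, a ubiquitin ligase induced by LXR, rose from 58.3 to 1122 (4.26, SE 0.11), Lrp2 rose by 3.44 (SE 0.15), these being 3.43 and 2.52 by limma on the authors' values, and Sort1, a sorting receptor, fell by 1.51 (SE 0.03) on the log2 scale. Sorl1, which passed the filter through P alone, had 2, 2 and 0 counts in D1 and 226, 204 and 198 in P. No gene of 13 was called in RBPMS KD1, where 4 were higher and 5 lower at an adjusted p under 0.05 alone by edgeR, beside 29.5% and 29.5% of all genes.

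Of 21 genes for lipoprotein lipase partners and apolipoproteins, 9 were tested in P, 1 higher and 2 lower. The higher call was Angptl8, which passed the filter through P alone. Apoc3, an inhibitor of the lipase, fell from 272 to 27.8 (-3.29, SE 0.18, or -2.54 by limma on the authors' values), and Angptl4, a secreted inhibitor of the same enzyme, from 353 to 142 (-1.32, SE 0.12). In RBPMS KD1 Angptl4 was the 1 of 8 called and moved the other way, to 827 (1.23, SE 0.08). Pltp, the phospholipid transfer protein, was the 1 of 7 called in MBNL KD, from 1446 to 3029 (1.07, SE 0.04). In RBPMS KD1 it stood at 2869, a log2 fold change of 0.99 (adjusted p = 9.7e-17 by edgeR) just short of the 2-fold threshold.

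In the list of cholesterol efflux genes and their LXR and PPAR regulators, 15 of 17 were tested in P, 4 higher and 2 lower. Arl4c rose by 3.74 (SE 0.07), and Srebf1, an LXR target that drives lipid synthesis, from 3015 to 10519 (1.80, SE 0.03), while Abcg4 fell by 1.45 (SE 0.11). Outside the naming rule and chosen after their values were seen, Nr1h3, which encodes LXR alpha and passed the filter through P alone, had mean scaled counts of 65.6 in P and 2.72 in D1, and Pparg, the nuclear receptor of fat cell differentiation, 9.15 and 61.0. No gene of 15 was called in RBPMS KD1, with 7 higher and 1 lower at the adjusted p alone, beside 29.5% and 29.5% of all genes. In MBNL KD 2 of 14 were lower and none higher, Lpcat3, an LXR target that remodels phospholipids, from 11733 to 2833 (-2.05, SE 0.03) and Abca2, an endolysosomal ABC transporter, from 3106 to 1223 (-1.34, SE 0.05).

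Lysosomal cholesterol handling had 12 tested genes in each comparison with D1. In P, Npc2 and Tfeb rose (1.12, SE 0.02, and 1.10, SE 0.05) and Npc1 fell (-1.18, SE 0.03). Npc1 and Npc2 pass cholesterol out of the lysosome, and Tfeb encodes a transcription factor of lysosomal genes. In RBPMS KD1 none passed the 2-fold threshold, while 10 were higher and 1 lower at an adjusted p under 0.05 by edgeR, beside 29.5% and 29.5% of all genes, with a median log2 fold change of 0.43. Npc1 stood there at 17903 ± 77.4 beside 11510 ± 624 in D1 (SD, n = 3). In MBNL KD Ctsb, a lysosomal cysteine protease, fell from 80263 to 30168 (-1.41, SE 0.03).

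Of 22 genes of cholesterol esterification and lipid droplets, 17 were tested. Plin4, a droplet coat protein, fell in P from 4270 to 131 (-5.03, SE 0.07), and Hilpda and Fabp5 rose (1.24, SE 0.06, and 1.22, SE 0.03). None was called in RBPMS KD1, with 7 higher and 5 lower at the adjusted p alone, beside 29.5% and 29.5% of all genes. In MBNL KD, Soat1, the enzyme that esterifies cholesterol, was lower, 17783 in D1 and 8660 in MBNL KD (-1.04, SE 0.03), a value that came within 2-fold, at -0.96, after quantile normalisation. Fabp3, a fatty acid carrier below the abundance set for naming and chosen after its value was seen, was the 1 gene called higher, a call not made by limma on the authors' normalised values.

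**Figure D3:**
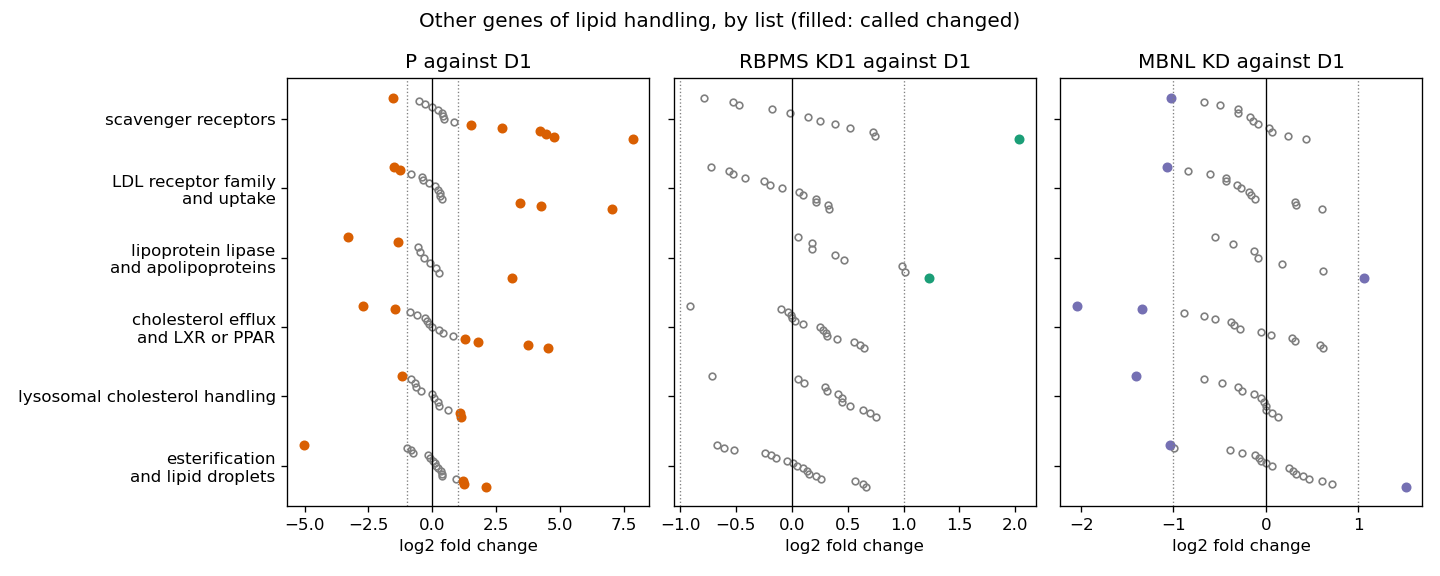
Log2 fold change against D1 of every tested gene in the 6 wider lists, 1 point per gene, in P, RBPMS KD1 and MBNL KD, with filled points for called genes and dotted lines at a 2-fold change. The horizontal range differs between panels. P had 3 to 7 calls in each list, RBPMS KD1 had 1 call in each of 2 lists, and MBNL KD had at most 2 calls in a list.

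Many of these genes are also expressed by macrophages, endothelium and fat cells, so defining markers of those cells were read beside them. Of 14 macrophage markers, 9 had any count in D1, 12 in P, 9 in RBPMS KD1 and 9 in MBNL KD. Tyrobp was at 0 in every library, and Ptprc and Itgam were at 0 in D1 and MBNL KD. The summed scaled counts of the list were 5231 to 5603 in D1, 4423 to 4630 in P, 7583 to 7766 in RBPMS KD1 and 4739 to 5010 in MBNL KD. Cd14 alone made up most of each sum, with means of 5262 in D1 and 7535 in RBPMS KD1, while Cd68 was 64.5 and 63.8. Csf1r, the macrophage colony-stimulating factor receptor, was the 1 marker of 5 tested that was called higher in MBNL KD, beside 6.10% of all genes, from 24, 19 and 26 counts to 52, 62 and 56. Of the others tested there, Cd14 was lower (log2 fold change -0.17, SE 0.03). Cd68, Fcer1g and Msr1 were at 0.04 (SE 0.23), 0.49 (SE 0.36) and 0.07 (SE 0.33). Endothelial marker sums were 811 to 904 in D1, 1351 to 1426 in P, 1076 to 1164 in RBPMS KD1 and 1426 to 1494 in MBNL KD, of which Egfl7 gave means of 774 in D1 and 1368 in MBNL KD. Of the endothelial markers tested, 3 of 4 were called higher in P and 2 of 3 in RBPMS KD1, beside 16.4% and 3.06% of all genes. Pecam1, Kdr and Tie1 were not tested and stayed near 0. Pecam1 had 6, 2 and 4 counts in D1 and 3, 10 and 3 in P, and in P Kdr had 0, 4 and 2 and Tie1 6, 6 and 0. In P, Cdh5 passed the filter through P alone, and the call of Vwf was lost, at a log2 fold change of 0.77 after quantile normalisation and 0.51 by limma on the authors' values. Tek had means of 23.9 in D1, 315 in P and 59.8 in RBPMS KD1, and Vwf 40.6, 100.4 and 94.7. Cdh5, the endothelial cadherin, was at 0 outside P and had 126, 138 and 122 counts there, and Emcn was at 0 throughout. The adipocyte sums did not exceed 25.9 in any library. The part of other cell types in the P, RBPMS KD1 and MBNL KD differences was not tested.

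The genes whose levels followed Olr1 most closely across the 12 libraries were Plekha3 (Pearson r = 0.994), Optn (0.993), Sytl1 (0.992), Ttc39b (0.992) and Eif5 (0.990), ranked among 13405 genes by log2 CPM. These are descriptions over 12 libraries in 4 groups, which share the MBNL KD difference. Their relative changes were smaller than that of Olr1. Sytl1 stood at 336% of its D1 mean in MBNL KD and at 164% in RBPMS KD1, Ttc39b at 203% and 126%, Plekha3 at 186% and 121%, Optn at 170% and 122%, and Eif5 at 143% and 112%, against 1829% and 282% for Olr1.

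**Figure D4:**
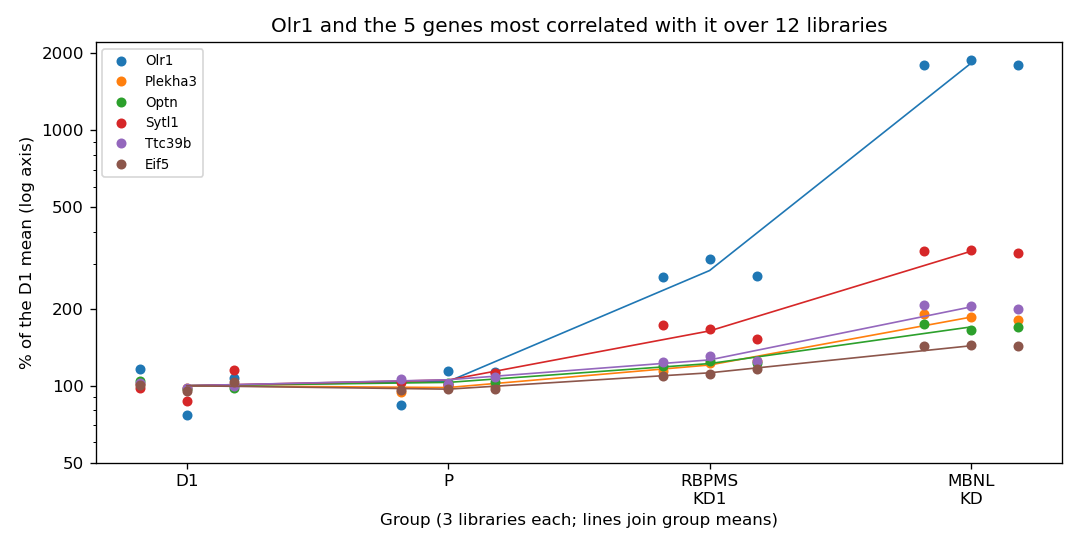
Level in each library as a percentage of the D1 mean, on a log axis, for Olr1 and the 5 genes most correlated with it, with groups along the horizontal axis, colours for genes and lines joining group means. All 6 genes were highest in MBNL KD, Olr1 at a mean of 1829% and the others between 143% and 336%.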

How the data were processed

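PolyA RNA was sequenced from 12 PAC1 libraries, 3 cultures per group described in the study's methods as biological replicates. The authors subsampled the reads to a common depth, aligned them to mRatBN7.2 with STAR 2.7.11b and deposited raw counts per gene from featureCounts, whose strand setting is not given in the sources used here. A deposited table of the authors' normalised signal, filtered for noise and quantile normalised, held 19812 genes with a minimum of 35, among them 8 of the 10 members, and served as an alternative only. Every table column was mapped to a library.

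Counts of each pair of groups were tested with edgeR 4.0.16 (R 4.3.3) by quasi-likelihood after filterByExpr and TMM normalisation, with Benjamini-Hochberg adjustment over all genes tested. A call needed an adjusted p under 0.05 together with a change of more than 2-fold either way. Scaled counts are counts divided by TMM-scaled library size over all 12 libraries. The common biological coefficient of variation was 2.88% to 3.24%. The members and gene lists were chosen with earlier results of these data known. Named list genes are up to 4 per list and comparison with D1, those called with at least 100 scaled counts and the largest change, and for Olr1 the 5 genes with the highest correlation. Intervals are 95%, Wald for fold changes and exact binomial for count ratios. Alternatives used DESeq2 1.42.0, limma 3.58.1, other filters and scalings, a replicate block and leaving out each library. No 2 libraries held identical counts, and a permutation test of 3 against 3 could not go below 0.1. The result of 1 list gene in MBNL KD is not reported here.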

Additional observations from a re-analysis of the deposited data

How the results depend on the processing

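With at least 10 counts required in every library, 2933 genes and 3 members were called in P against D1, and 3154 genes and 5 members in P against RBPMS KD1, since that filter removes genes near 0 in 1 group. Without a fold threshold, 13103, 9393, 10833 and 13423 genes passed in P, RBPMS KD1 and MBNL KD against D1 and in P against RBPMS KD1. Of the 7 tested members other than Olr1, 4 were higher and 2 lower in RBPMS KD1, beside 29.5% and 29.5% of all genes. In MBNL KD 6 of 8 members passed, a count from which nothing is read since Olr1 was chosen there. limma on the authors' normalised values called 209 genes in RBPMS KD1 and 784 in MBNL KD, and the cause was not tested. Scarb1, Scarb2 and Vldlr in both comparisons of P, and Olr1 and Apoe in P against RBPMS KD1, kept their direction under every alternative run. Nothing is read from the direction of Olr1 against D1, where it was chosen, or of Abcg1, Lpl and Cd36, which passed the filter through 1 group. Leaving out 1 library in turn gave 4757 to 4831 genes called in P, 739 to 783 in RBPMS KD1, 1657 to 1728 in MBNL KD and 5023 to 5097 in P against RBPMS KD1. The members called stayed at 6 in P against D1 and 8 in P against RBPMS KD1. In RBPMS KD1 and MBNL KD against D1 only Olr1 was called, from which nothing is read since it was chosen against D1. Apoe passed the call in P against D1 only after quantile normalisation (-1.23), and in MBNL KD it changed from 0.14 to -0.04 there. Deviations of same-numbered replicates from their group means were close to uncorrelated (correlations from -0.03 to 0.02). Differently numbered replicates were not compared with this, so whether the replicates are pairs is not settled. A replicate block, entered as a term for the number, called 4593, 730 and 1634 genes in P, RBPMS KD1 and MBNL KD against D1 and 4897 in P against RBPMS KD1. It called 6 members in P against D1 and 8 in P against RBPMS KD1. In the knockdown groups against D1 it called Olr1 alone, from which nothing is read. Lpl and Abcg1 had too few counts outside P for any statement on the knockdown groups.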
